A study of Mus musculus with 2 samples.

Results

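The 10 genes described here encode basic helix-loop-helix (bHLH) transcription factors of the neuronal lineage. They are Neurog1, Neurog2, Neurod1, Neurod2, Neurod4, Neurod6, Bhlhe22, Bhlhe40, Tcf4 and Tcf12, chosen by name from the 21938 protein-coding genes of GENCODE M21 on chromosomes 1 to 19, X and Y. DNase-seq had been run on mouse hippocampus, a tissue the labels call a layer of hippocampus without naming the layer. The assay digests nuclei with DNase I, which reaches open chromatin first. Sites rich in cuts are listed as peaks, and short protected stretches within them as footprints. All the animals were female B6CASTF1/J mice, an F1 cross, aged 8 to 10 months and untreated as far as the labels say. There was 1 group of 2 libraries, numbered as biological replicates 1 and 2, and each was a pool of 2 biosamples. Nothing in the labels states that the animals of the 2 pools differed, so the spread between the libraries may be partly technical. With 1 group and no other arm, every value below is a description and no test was made.

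bHLH proteins pair through their helix-loop-helix and grip the 6-base E-box, CANNTG, with their basic regions. Neurogenins and NeuroD proteins bind as partners of the broadly expressed E proteins, which include Tcf4 and Tcf12, and typically prefer the form CAGATG, read CATCTG on the opposite strand. Neurogenins commit progenitors to the neuronal fate, and the NeuroD genes act after them in differentiation. In the hippocampus Neurod1 is needed for the dentate gyrus to form, and Neurod2 and Neurod6 stay active in mature excitatory neurons. Bhlhe22 and Bhlhe40 are repressors of the same superfamily.

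Promoters of 8 of the 10 genes held a peak in both libraries, where a promoter spans 500 bp each way from every annotated transcript start. The same held for 59.2% of all protein-coding genes. The other 2 genes, Neurod4 and Neurog2, held a promoter peak in neither library, as did 36.4% of all genes. In the smaller, stricter peak list the same 8 promoters were found in both libraries, against 53.3% of all genes. The height of a peak is the authors' deposited signal. Its smallest step was 0.00606 for replicate 1 and 0.00795 for replicate 2, and what 1 step stands for is unknown here. The highest promoter peaks of the 8 genes held between 95 and 582 steps. Tissue of this kind mixes many cell types, and fewer cells of a type cannot be told apart from less accessible DNA per cell.

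Mean promoter height ran from 3.11 at Bhlhe40 down to 0.741 at Neurog1. Bhlhe40 and Tcf4 stood above 2.30, the median over the 12982 genes open in both libraries, whose middle quartiles ran from 1.22 to 4.06. The other 6 stood below it. Between neighbours in the order, Bhlhe40 and Tcf4, Neurod2 and Tcf12, and Neurod6 and Bhlhe22 changed order between libraries. Tcf12 was above Neurod6 in each library, though their ranges across libraries overlapped. Ranges did not overlap between Tcf4 and Neurod2, Bhlhe22 and Neurod1, or Neurod1 and Neurog1. Replicate 2 was higher at 6 of the 8 promoters, and also in the median over the 12982 genes, 2.48 against 2.12 in replicate 1.

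**Figure D1:**
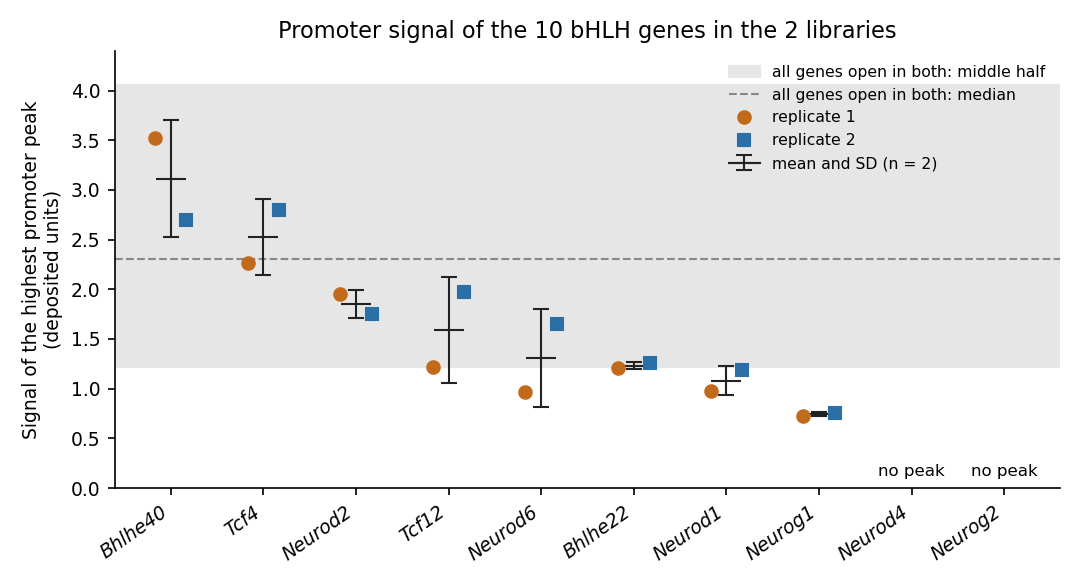
Signal of the highest promoter peak of each gene (vertical axis, deposited units) in replicate 1 (circles) and replicate 2 (squares), with the mean and SD of the 2 libraries; the dashed line and grey band are the median, 2.30, and the quartiles, 1.22 and 4.06, of all genes open in both. Bhlhe40 and Tcf4 have means above the line, and Neurod4 and Neurog2 have no peak.

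The neurogenins lay at the low end. Neurog1 (chromosome 13, 56250478 to 56252163, minus strand) had a promoter signal of 0.727 in replicate 1 and 0.755 in replicate 2, a mean of 0.741 ± 0.0200 (SD, n = 2). That was the lowest of the 8 open promoters, with 11.2% of open promoters at or below it. Its peaks did not cover the annotated start and ended 138 bp upstream of it in replicate 1 and 78 bp upstream in replicate 2. Neurog2 (chromosome 3, 127633135 to 127635631, plus strand) had no promoter peak. Only 34 bases of its promoter window were listed below a false discovery rate of 0.05 in replicate 1, the lowest at 0.0418, and none in replicate 2. The closed promoter was rich in CpG: its observed to expected CpG ratio of 0.851 was at or above that of 86.3% of genes, against 0.756 for the open Neurog1.

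The surroundings of these paralogs differed in their number of distal sites. A distal site here is a peak that touches no promoter window of a protein-coding gene and lies within 50 kb of the gene record, merged between libraries at 1 bp of overlap. Neurog1 had 9 such sites, of which 7 were in both libraries, and Neurog2 had 3, all in both. This came to 8.85 sites per 100 kb for Neurog1 and 2.93 for Neurog2, against a median of 5.09 over all genes, so that 83.2% and 26.6% of genes lay at or below them. At Neurog1 the strongest shared site, 27.5 kb upstream, reached 1.24 in replicate 1 and 1.81 in replicate 2, a mean of 1.52 ± 0.408 (SD, n = 2), and 90.1% of all shared distal sites were at or below it. It lay nearer to the start of Cxcl14, a chemokine gene. Next came sites 25.8 kb downstream at 1.15 ± 0.0909 and 13.7 kb upstream at 1.08 ± 0.132 (SD, n = 2). All 3 exceeded the promoter of Neurog1 in each library. At Neurog2 the shared sites had means of 0.512 ± 0.244 in its own exon, 0.456 ± 0.0530 at 7.69 kb upstream and 0.313 ± 0.0375 at 38.5 kb downstream in an intron of Alpk1 (SD, n = 2), all below the 0.686 median of shared distal sites.

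Among the NeuroD genes, promoter height was greatest at Neurod2. Neurod2 (chromosome 11, 98325415 to 98329648, minus strand) had 1.95 in replicate 1 and 1.75 in replicate 2, a mean of 1.85 ± 0.143 (SD, n = 2). Neurod6 (chromosome 6, 55677822 to 55681263, minus strand) had 0.963 and 1.65, a mean of 1.31 ± 0.488. Neurod1 (chromosome 2, 79452521 to 79456751, minus strand) had 0.975 and 1.18, a mean of 1.08 ± 0.148. Neurod2 was thus above Neurod1 and Neurod6 in each library, whereas Neurod6 and Neurod1 changed order between libraries. Open promoters at or below these means made up 40.7%, 27.4% and 21.2%. The Neurod1 peak also touched a start of Cerkl, a ceramide kinase-like gene on the same strand whose nearest start is 34 bp away, so the peak cannot be given to either gene alone.

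Neurod4 (chromosome 10, 130268152 to 130280240, minus strand), a NeuroD gene of early differentiation, had no promoter peak, and no base of its promoter window was listed in either library. Its promoter was poor in CpG, at a ratio of 0.200, but the open Neurod6 promoter was as poor, at 0.205. The median over all genes was 0.552. CpG content therefore did not separate the open from the closed promoters among these genes, since the closed Neurog2 and the open Tcf12, at 0.993, were both CpG-rich.

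The peaks at the starts of Neurod1 and Neurod2 are shown because both hold the E-box form these proteins prefer. Sequences are from the mm10 reference and not from the animals, are written 5′ to 3′, and leave out exons of coding genes. Capitals mark bases that lay in footprints of both libraries.
Neurod1 promoter, chr2:79456786-79457000, minus strand: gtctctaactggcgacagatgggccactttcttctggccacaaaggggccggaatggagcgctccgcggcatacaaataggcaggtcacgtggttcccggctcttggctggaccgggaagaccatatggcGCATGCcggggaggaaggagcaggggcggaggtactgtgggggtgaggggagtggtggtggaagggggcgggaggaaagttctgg
Neurod2 promoter, chr11:98329649-98329800, minus strand: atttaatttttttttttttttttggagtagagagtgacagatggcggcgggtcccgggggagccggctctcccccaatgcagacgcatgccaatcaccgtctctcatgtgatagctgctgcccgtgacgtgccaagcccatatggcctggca
The Neurod1 stretch holds cagatg at bases 16 to 21, cacgtg at 87 to 92 and catatg at 123 to 128. The Neurod2 stretch holds cagatg at bases 38 to 43, catgtg at 105 to 110 and catatg at 139 to 144. None of these 6 E-boxes lay wholly in footprints of both libraries, which shared 6 bases in the Neurod1 stretch and 0 in the Neurod2 stretch.

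Neurod2 had the densest surroundings of the 10 genes, with 15 distal sites, 8 of them in both libraries. It was the nearest protein-coding gene for only 4 of the 15, and the rest lay nearer to Cdk12, Ppp1r1b or Stard3. The density was 14.4 sites per 100 kb, and 97.1% of protein-coding genes lay at or below it. The strongest, 13.1 kb upstream at chr11:98342661-98342900, reached 2.58 in replicate 1 and 4.23 in replicate 2, a mean of 3.41 ± 1.17 (SD, n = 2). It exceeded the Neurod2 promoter in each library, and 99.1% of all shared distal sites were at or below it. It lay 5623 bp from the start of Ppp1r1b, which encodes a dopamine-regulated phosphatase inhibitor, and so nearer to that gene than to Neurod2. On the transcribed side, a site 15.7 kb downstream of the start at chr11:98313841-98314120 had 2.55 and 2.74, a mean of 2.65 ± 0.136, and Neurod2 was the nearest gene. All 8 shared sites in this window, from 0.769 to 3.41, were above the 0.686 median. The strongest member site seen in replicate 1 alone, 0.582, also lay here, 45.7 kb downstream.

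Neurod1 and Neurod6 had many weak sites. Each had 10 distal sites, or 9.59 and 9.67 per 100 kb, and 86.8% and 87.1% of genes lay at or below them. Of these, 7 at Neurod1 and 6 at Neurod6 were seen in replicate 2 alone, as were 37.3% of all distal sites. At Neurod1 these 7 had signals of 0.286 to 0.398 and no listed base in replicate 1. The strongest shared site of Neurod1 lay 42.7 kb upstream in intergenic sequence, at 0.963 and 1.79, a mean of 1.38 ± 0.584 (SD, n = 2). Inside the gene, an intronic site 1.52 kb from the start had 0.545 and 0.747, and an exonic site 2.48 kb from it had 0.485 and 0.612. The strongest shared site of Neurod6 lay 36.2 kb upstream at 0.570 and 0.899, a mean of 0.734 ± 0.233, below its promoter in each library. Neurod4 had 7 sites, 4 of them in both libraries, with the highest 35.8 kb downstream at 0.557 and 0.938, a mean of 0.748 ± 0.269. Its closed promoter thus stood beside shared distal sites that were as high as those of Neurod6. The highest Neurod4 site and the shared one at 0.675 lay nearer to the start of Olfr827, 30078 and 14040 bp away.

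**Figure D2:**
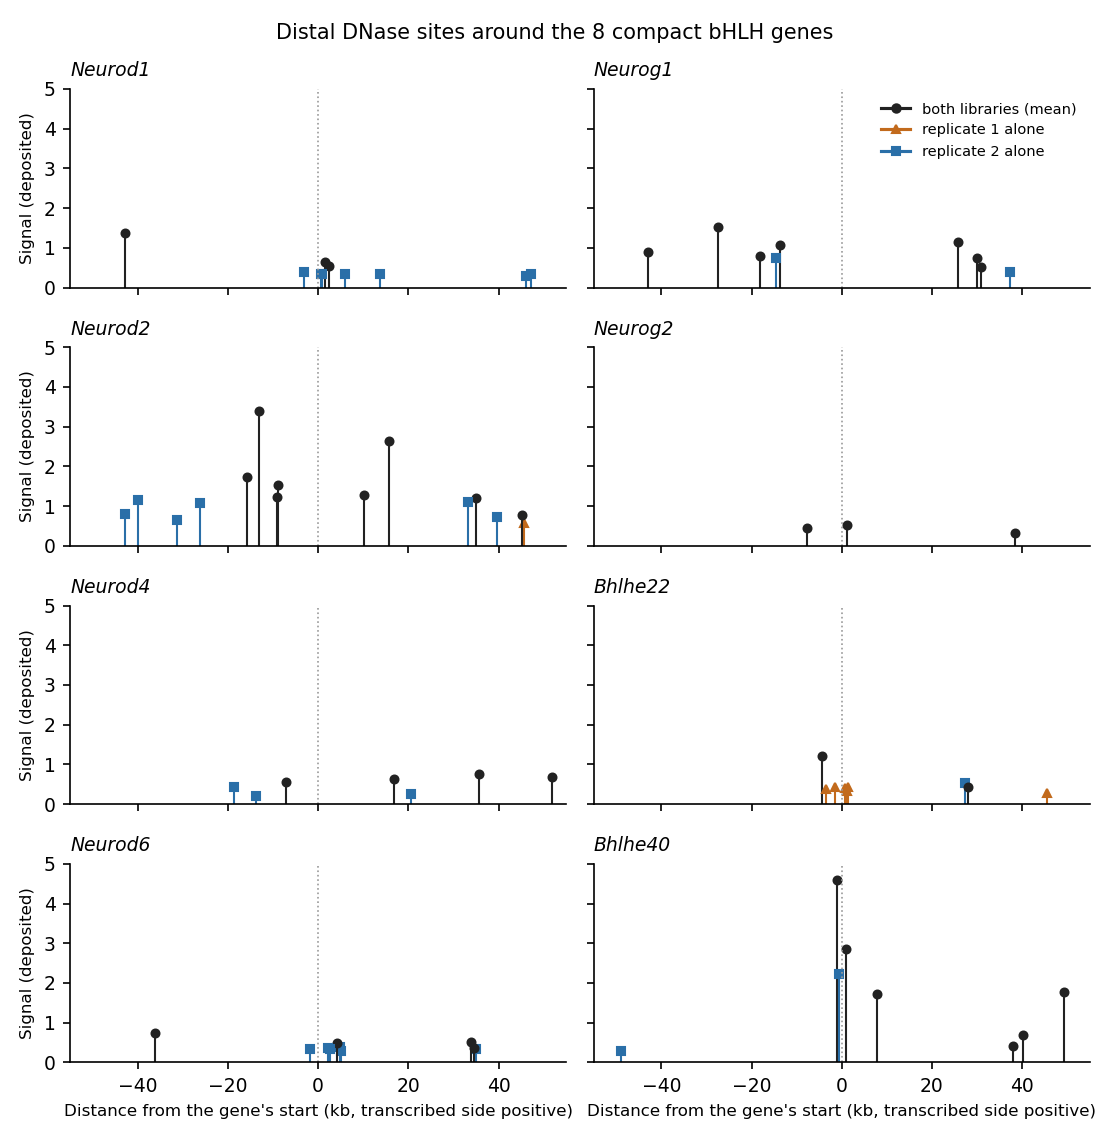
Distal sites around the 8 compact genes by distance from the gene's start (horizontal axis, kb) and deposited signal (vertical axis); circles are sites in both libraries (mean), triangles replicate 1 alone and squares replicate 2 alone. The tallest are 4.60 at Bhlhe40 and 3.41 at Neurod2, while no site of Neurog2 exceeds 0.512.

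The strongest shared distal sites of 4 of the genes are printed whole. They were picked after the sequences had been seen: those of Neurod2, Neurod6 and Neurog1 hold a CTCF core in shared footprints, described further on, and that of Neurod1 does not. Capitals again mark bases in footprints of both libraries.
Neurod2, 13.1 kb upstream, chr11:98342661-98342900, plus strand: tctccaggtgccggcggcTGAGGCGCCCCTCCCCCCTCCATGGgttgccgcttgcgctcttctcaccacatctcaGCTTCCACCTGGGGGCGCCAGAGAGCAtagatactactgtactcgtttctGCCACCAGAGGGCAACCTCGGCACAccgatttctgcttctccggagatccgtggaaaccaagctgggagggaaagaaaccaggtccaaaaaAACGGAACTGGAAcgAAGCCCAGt
Neurod1, 42.7 kb upstream, chr2:79499381-79499600, plus strand: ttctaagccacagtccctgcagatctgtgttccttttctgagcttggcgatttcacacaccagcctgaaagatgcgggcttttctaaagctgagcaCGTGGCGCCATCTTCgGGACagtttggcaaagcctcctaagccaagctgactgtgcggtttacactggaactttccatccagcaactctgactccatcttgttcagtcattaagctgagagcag
Neurod6, 36.2 kb upstream, chr6:55717321-55717520, plus strand: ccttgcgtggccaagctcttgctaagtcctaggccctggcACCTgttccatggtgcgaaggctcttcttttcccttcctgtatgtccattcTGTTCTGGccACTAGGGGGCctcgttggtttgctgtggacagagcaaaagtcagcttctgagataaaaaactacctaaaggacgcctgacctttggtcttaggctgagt
Neurog1, 27.5 kb upstream, chr13:56279521-56279740, plus strand: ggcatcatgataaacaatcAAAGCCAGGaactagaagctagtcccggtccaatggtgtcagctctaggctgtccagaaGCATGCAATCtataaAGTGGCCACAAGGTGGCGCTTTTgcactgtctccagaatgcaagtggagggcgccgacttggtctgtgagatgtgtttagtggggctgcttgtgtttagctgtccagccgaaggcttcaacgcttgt
The Neurod2 site carried 98 bases shared between the footprints of the libraries, the Neurog1 site 42, the Neurod6 site 22 and the Neurod1 site 19. At the Neurod2 site a footprint of 27 bp had the same first and last base in both libraries, chr11:98342736-98342762.

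The repressors differed from each other in height. Bhlhe40 (chromosome 6, 108660629 to 108666925, plus strand), an activity- and clock-regulated repressor, had 3.53 in replicate 1 and 2.70 in replicate 2, a mean of 3.11 ± 0.587 (SD, n = 2), with 63.3% of open promoters at or below it. Bhlhe22 (chromosome 3, 18054174 to 18057517, plus strand), a repressor active in projection neurons, had 1.21 and 1.26, a mean of 1.23 ± 0.0358, with 25.4% at or below it. The Bhlhe40 peaks ended 29 bp and 49 bp upstream of the nearest start, and an antisense gene, 0610040F04Rik, starts within reach of the same peaks.

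The most accessible distal site of all 10 genes lay 1138 bp upstream of Bhlhe40, at chr6:108659301-108659680 in an exon of the noncoding gene Gm17055. It had 4.65 in replicate 1 and 4.54 in replicate 2, a mean of 4.60 ± 0.0799 (SD, n = 2), and 99.6% of all shared distal sites were at or below it. It exceeded the Bhlhe40 promoter in each library. A site 1042 bp downstream of the start, in a Bhlhe40 intron, had 2.87 and 2.82, a mean of 2.85 ± 0.0348. Of the 8 sites of Bhlhe40, 6 were in both libraries, and Bhlhe40 was the nearest gene of all 8. The highest site listed for replicate 2 alone, 2.23 at chr6:108659721-108660100, is 1 of these, but replicate 1 had a peak of 2.45 at the same place that reached into the promoter window. It was the only distal site of the 115 where this happened.

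The promoter stretch of Bhlhe40 and the middle of the site upstream of it are shown as the highest promoter and the highest distal site of the 10 genes, with capitals as before.
Bhlhe40 promoter, chr6:108660341-108660600, plus strand: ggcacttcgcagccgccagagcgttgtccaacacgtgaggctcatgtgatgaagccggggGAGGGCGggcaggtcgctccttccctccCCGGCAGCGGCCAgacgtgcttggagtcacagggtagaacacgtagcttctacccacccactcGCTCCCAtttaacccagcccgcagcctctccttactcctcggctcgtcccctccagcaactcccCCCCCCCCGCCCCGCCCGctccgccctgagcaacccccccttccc
Bhlhe40, 1.14 kb upstream, chr6:108659341-108659640, plus strand: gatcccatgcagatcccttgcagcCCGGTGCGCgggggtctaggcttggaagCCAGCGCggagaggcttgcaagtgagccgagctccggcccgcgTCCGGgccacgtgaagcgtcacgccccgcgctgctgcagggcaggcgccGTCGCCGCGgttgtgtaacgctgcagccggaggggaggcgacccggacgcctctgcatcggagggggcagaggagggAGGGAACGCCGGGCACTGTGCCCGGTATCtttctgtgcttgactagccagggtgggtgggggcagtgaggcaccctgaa
Footprints of the libraries shared 45 bases in the promoter stretch and 59 in the upstream stretch. The form cacgtg, which Bhlhe40 itself is known to bind, is at bases 32 to 37 of the first and 103 to 108 of the second, outside those capitals. The copy in the second did touch a footprint, though not in both libraries. This form was found in 3.73% of all distal sites and in 17.1% of all 1001-bp promoters.

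Bhlhe22 was the only gene of the 10 with more sites in replicate 1 alone than in replicate 2 alone. Of its 9 distal sites, 2 were in both libraries, 6 in replicate 1 alone and 1 in replicate 2 alone. All 10 genes together had 12 sites in replicate 1 alone, so 6 of those 12 lay at Bhlhe22. They were weak, at 0.273 to 0.442, and 3 of them lay in the Bhlhe22 exon with a median GC content of 70%. The strongest shared site, 4.37 kb upstream, had 0.848 and 1.56, a mean of 1.20 ± 0.502 (SD, n = 2). Over all 10 genes the median GC content was 54.6% for sites in replicate 1 alone and 45.4% for sites in replicate 2 alone, and its part in these lists was not tested.

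The E proteins, partners of the factors above, had the most transcript starts. Tcf4 (chromosome 18, 69343356 to 69689079, plus strand) has 58 distinct annotated starts, which formed 14 separate promoter regions. Of these regions 3 had a peak in both libraries, 1 in replicate 1 alone and 1 in replicate 2 alone, and 9 had none. The highest lay 250 kb into the gene, around starts 249632 to 250826 bp from the gene record's start. It had 2.26 in replicate 1 and 2.80 in replicate 2, a mean of 2.53 ± 0.381 (SD, n = 2). The region nearest the record's start, with starts 0 to 1173 bp from it, had 1.94 and 2.32, a mean of 2.13 ± 0.267, and its peaks lay near the downstream starts: with the record's 5′ end alone, Tcf4 had no promoter peak in both libraries. The internal and the upstream promoters were thus both open. The internal one was higher in each library, though their ranges across libraries overlapped.

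The other Tcf4 region with peaks in both, 156033 bp into the gene, had 0.769 and 0.811, but its peaks in the 2 libraries did not overlap each other. About 1 kb further, a region with 4 starts had a peak of 1.35 in replicate 2 and no listed base in replicate 1. A gene with more starts has more chances of holding a high peak, and 54.1% of open promoters were at or below the Tcf4 value.

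Tcf12 (chromosome 9, 71842688 to 72111871, minus strand) has 20 starts in 5 regions, and only the region at its 5′ end, with 12 of the starts, had a peak in both libraries. It had 1.22 in replicate 1 and 1.97 in replicate 2, a mean of 1.59 ± 0.533 (SD, n = 2). A region of 4 starts about 215 kb into the gene had a peak in replicate 2 alone, at 0.461. In all, 32 of the 89 starts of the 10 genes had a peak within 500 bp in both libraries and 47 had none. Tcf4 gave 58 of the 89 and 39 of the 47, and Tcf12 gave 20 of the 89. The share over the starts of all genes is not given here, and the 59.2% above counts genes, not starts.

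**Figure D3:**
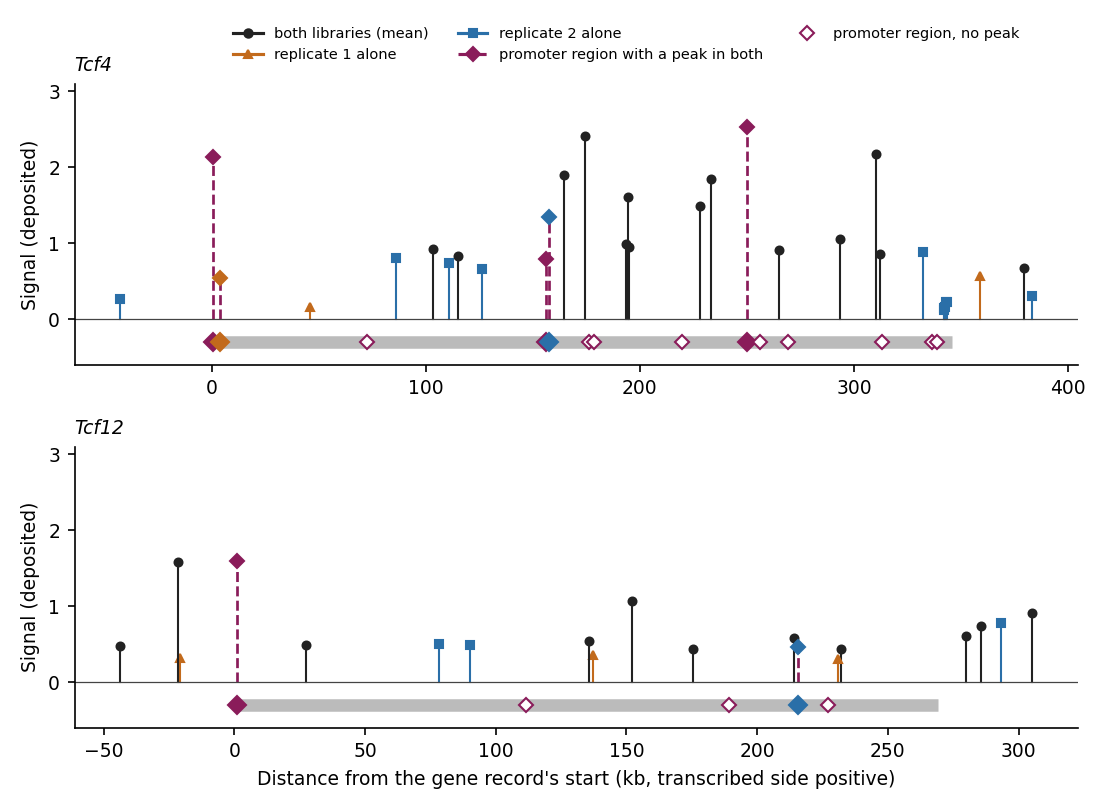
Promoter regions (diamonds) and distal sites along Tcf4 and Tcf12 by distance from the gene record's start (horizontal axis, kb) and deposited signal (vertical axis; mean where both libraries have a peak). The grey bar is the gene; on it, filled diamonds are promoter regions with a peak (purple in both libraries, orange replicate 1 alone, blue replicate 2 alone) and open diamonds are regions with none. In Tcf4 the internal region at 250 kb reaches 2.53 and the 5′ region 2.13.

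Tcf4 had 27 distal sites, 23 of them inside the gene and 14 in both libraries, and Tcf4 was the nearest gene of all 27. The strongest, in an intron 174 kb from the record's start, had 2.30 and 2.53, a mean of 2.42 ± 0.160 (SD, n = 2), and 97.5% of shared distal sites were at or below it. The next, 310 kb in, had 2.28 and 2.08, a mean of 2.18 ± 0.138. The former lay 1998 bp and the latter 2896 bp from the nearest annotated Tcf4 start. Over the long Tcf4 window the density was 6.06 per 100 kb, with 60.5% of genes at or below it. In the last exon of Tcf4, 5 sites were seen in replicate 2 alone with signals of only 0.119 to 0.231, yet with listed false discovery rates down to 1.15e-9, and no base there was listed in replicate 1. Signal and listed rate thus did not rank sites alike.

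Tcf12 had 17 distal sites, 11 in both libraries and 10 inside the gene, or 4.60 per 100 kb, with 43.6% of genes at or below it. The strongest, 21.4 kb upstream, had 1.17 and 1.99, a mean of 1.58 ± 0.579 (SD, n = 2), about the height of the Tcf12 promoter itself. Inside the gene the highest, 152 kb in, had 0.915 and 1.22, a mean of 1.07 ± 0.219.

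**Figure D4:**
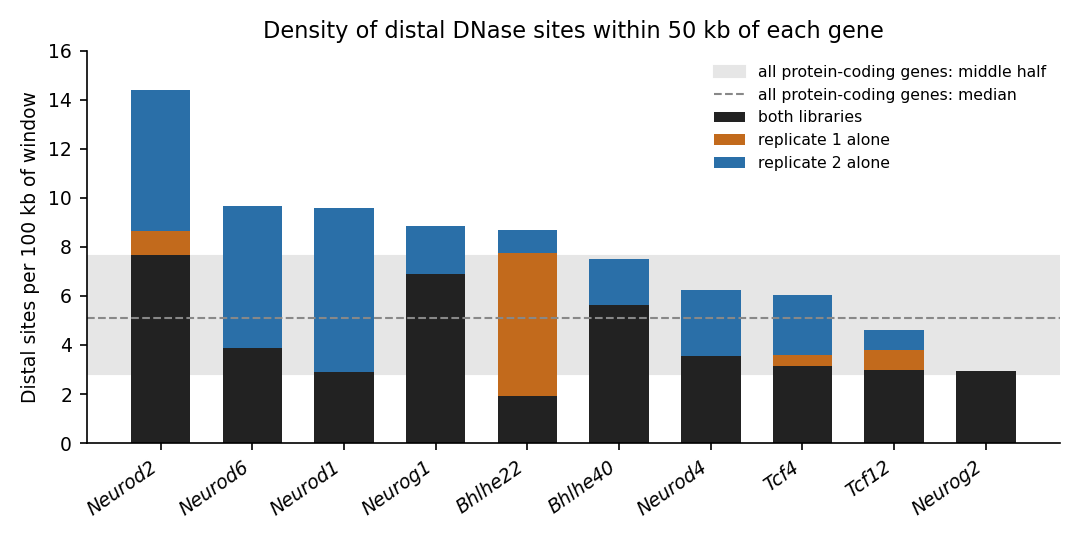
Distal sites per 100 kb of the gene record with 50 kb on either side (vertical axis), stacked by the libraries that saw them; the dashed line and grey band are the median, 5.09, and the quartiles, 2.82 and 7.64, of all protein-coding genes. Neurod2 reaches 14.4 and Neurog2 only 2.93.

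Together the 10 genes had 115 distal sites, of which 62 were in both libraries, 12 in replicate 1 alone and 41 in replicate 2 alone. Replicate 1 alone thus held 10.4% of them, against 12.3% of all distal sites, and replicate 2 alone 35.7%, against 37.3%. The share in both was 53.9% (Wilson 95% interval 44.8 to 62.7%, counting error only), near the 50.4% of all 120435 distal sites. Over the genes it ran from 22.2% at Bhlhe22 and 30% at Neurod1 to 77.8% at Neurog1 and 100% at Neurog2, on 3 to 27 sites each. The median mean signal of the 62 shared sites was 0.873, against 0.686 for all shared sites, and 40 of the 62 were above the latter. Replicate 2 was higher at 44 of the 62, and also in the median over all shared peaks, 0.827 against 0.685 in replicate 1. Of the 53 sites seen in 1 library alone, 8 had a base listed below the 0.05 rate in the other. Among these 8, a Tcf12 site 20.9 kb upstream, counted for replicate 1 alone at 0.321, touched a stricter peak of replicate 2. All its 181 bases were listed there. By place, 52 sites were intergenic, 46 intronic and 17 exonic, and for 91 of the 115 the member was the nearest protein-coding gene. A nearby site was not tied to its gene by any measurement here.

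Footprints in the promoters and distal sites numbered 249 in replicate 1 and 288 in replicate 2. Of the first, 47.4% overlapped a footprint of replicate 2 (Wilson 95% interval 41.3 to 53.6%), against 46.2% for footprints in all promoters and distal sites. Of the second, 42.4% overlapped a footprint of replicate 1 (36.8 to 48.1%), against 45.1%. The shares were therefore near the background in both directions. Tcf4, with the most distal sites, had 54 and 62, of which 25 and 26 were found in the other library. Bhlhe40 had 48 and 39, of which 30 and 31 were, Tcf12 36 and 47, of which 14 and 15 were, and Neurod2 31 and 44, of which 18 and 17 were. Neurog2 had 4 and 5, of which 1 and 1 were.

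The E-box that NeuroD and neurogenin proteins prefer was about as frequent in the distal sites of these genes as elsewhere. CAGATG or CATCTG was found in 27.8% of the 115 sites (Wilson 95% interval 20.5 to 36.6%), against 30.5% of all distal sites, counted on both strands. Any CANNTG was found in 76.5%, against 74.4%. CACCTG or CAGGTG was found in 19.1% against 13.6%, and the palindrome CAGCTG in 20.9% against 19.7%. Within the 1001-bp window of the gene record's start, 8 of the 10 promoters held CAGATG or CATCTG, against 42.8% of all promoters, and 2 held CACCTG or CAGGTG, against 55.6%. Neurog1 and Bhlhe40 lacked the former, and Neurod6 held 4 copies of it. The closed promoters of Neurod4 and Neurog2 each held 1. So did the window at the Tcf4 record's start, which held no peak in either library.

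E-boxes in the distal sites touched footprints about as often as elsewhere. Of 185 CANNTG matches, 43 touched a footprint of either library, or 23.2%, against 24.3% of the matches in all distal sites. Counting promoters too, 15 touched footprints of both libraries. No share over all promoters and distal sites is given here for this count or for its forms. Of the 15, 5 were CACCTG or CAGGTG and 3 CAGATG or CATCTG, and 6 lay wholly inside both footprints. The E-boxes outside Tcf4 that did so, and the CATCTG in the Neurod6 promoter, are given with 12 bases on either side and the E-box in capitals.
Neurod1, 1.40 kb downstream, chr2:79455336-79455365, plus strand: caattatctggcCAGGTGccctgtgtggaa
Neurod2, 13.1 kb upstream, chr11:98342729-98342758, plus strand: catctcagcttcCACCTGggggcgccagag
Neurod2, 15.8 kb upstream, chr11:98345437-98345466, plus strand: ggccgattccgcCACCTGctggccgttccc
Neurog1, 13.7 kb upstream, chr13:56265828-56265857, plus strand: ctgtgcccagagCATATGgacactagggaa
Tcf12, 305 kb downstream, chr9:71806611-71806640, plus strand: gtgtggtggcacCACCTGgtggtaatgtat
Neurod6, 55 bp downstream, chr6:55681193-55681222, plus strand: ttctgcactgatCATCTGgcatccctgtaa
The footprints over these E-boxes were 18 and 19 bp wide at Neurod1, 27 and 27 bp and 33 and 33 bp at the Neurod2 sites, 12 and 16 bp at Neurog1, 24 and 28 bp at Tcf12 and 13 and 10 bp at Neurod6 (replicate 1 and replicate 2). The Neurod6 footprints left out the first 1 and 2 bases of the E-box as printed.

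Some footprints over CACCTG coincided with the core element of CTCF, the zinc finger protein known for binding insulators and the anchors of chromatin loops. The element was looked for after the sequences above had been seen, as the 12-base CTCF core consensus with at most 1 mismatch on either strand. Of the 5 CACCTG or CAGGTG boxes in footprints of both libraries, 3 overlapped such a match, namely the pair upstream of Neurod2 and the 1 downstream of Tcf12. Over all distal sites 954 of 1905 such boxes did, or 50.1%, so 3 of 5 is near the background. In the printed distal sites the core is at bases 80 to 91 and 127 to 138 for Neurod2, 100 to 111 for Neurod6 and 99 to 110 for Neurog1. The core can itself contain CAGGTG, so the overlap is partly one of letters. The second Neurod2 match and that of Neurod6 have no mismatch. The Neurod1 site held none.

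Over all 10 genes, 19 of the 115 distal sites, or 16.5% (Wilson 95% interval 10.8 to 24.4%), held a CTCF core, against 14.4% of all distal sites. Of the 62 shared sites 13 did, or 21% (12.7 to 32.6%), against 19.7% of all shared sites. In 10 of these the match touched footprints of both libraries, which is 16.1% of the shared sites, against 13.8% of all shared sites. The genes with such a footprinted core were Neurod2, Neurod4, Neurod6, Neurog1, Bhlhe40, Tcf4 and Tcf12. Of the strongest shared sites of the 10 genes 4 held a core, or 40% (16.8 to 68.7%). This compares with 30.9% of all shared sites in the top quartile of signal and 19.7% of all shared sites. The strongest sites of Neurod4, Neurod6 and Neurog2 lay below that top quartile, and those of Neurod6 and Neurog2 are among the 4. The shares over the 115 and the 62 sites were thus near those of distal sites in general. The 10 strongest sites are too few to tell, and a match names no bound protein.

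Other bHLH genes and their inhibitors were counted the same way. Of 35 such genes, promoter peaks in both libraries were found for 20, in replicate 1 alone for 1 (Nhlh1, 0.497) and in neither for 14, against 59.2% of all genes in both and 36.4% in neither. The remaining E protein, Tcf3, had 5.42 and 5.53, a mean of 5.47 ± 0.0775 (SD, n = 2), above Tcf4 and Tcf12 in each library. All 4 Id genes, whose products sequester E proteins, were open, led by Id2 at 5.59 ± 0.260 and Id4 at 3.20 ± 0.0761. Of the 6 Hes and Hey genes 5 were open, led by Hey2 at 4.82 ± 0.837 and Hes6 at 2.97 ± 0.582. Most of the 6, though not Hes6, encode repressors downstream of Notch. Of 10 other proneural and neuronal bHLH genes only 3 were, led by Atoh7 at 0.891 ± 0.112. Of the Olig genes of glia 2 of 3 were open, Olig1 at 1.80 ± 0.0138 and Olig2 at 0.989 ± 0.0153. Bhlhe41, the circadian paralog of Bhlhe40, was open at 1.44 ± 0.0842, below Bhlhe40 in each library. Of 4 bHLH-PAS genes 3 were open, led by the activity-regulated Npas4 at 1.09 ± 0.219. Of 6 muscle and blood bHLH genes only Tal1 was, at 0.401 ± 0.0498.

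The tissue label was checked at promoters of marker genes. All 6 markers listed for glutamatergic neurons were open in both libraries, at mean signals of 0.954 for Rbfox3 to 3.37 for Syt1. Rbfox3, Syt1 and Snap25 of that list mark neurons in general, not glutamatergic neurons alone. So were 3 of 4 dentate granule markers and 3 of 4 CA field markers. Among immature neuron and progenitor markers, Sox11 and Tubb3 were open, Eomes had no peak and Dcx had a peak in replicate 2 alone. Promoters of markers of other cells were open too, at 4 of 5 astrocyte and 2 of 4 oligodendrocyte markers. The same held for 2 of 6 interneuron, 1 of 4 microglia and 1 of 4 endothelium markers and neither liver marker. Gad2 had a peak in replicate 2 alone, and Lhx6, Sox10 and P2ry12 had one in replicate 1 alone. Of all protein-coding genes 59.2% were open in both libraries, and lists this short cannot be told apart from that share with any certainty. Mean signals of the open astrocyte markers ran from 0.683 to 3.83. Their part in the promoter and distal values of the bHLH genes was not tested.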

How the data were processed

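DNase-seq of 2 hippocampus libraries of 1 group was used. Per the labels the assembly is mm10. No aligner, peak caller or footprint tool is named in the sources used here. Peaks were listed per library. The peak height deposited by the authors is a signal with no negative value, in whole multiples of 1 step per library (100% of peaks, to a tolerance of 0.05 step), and the depth of the libraries is unknown. False discovery rates (treated as a p-value unit) were deposited for intervals under 0.05 and no others. Every deposited footprint has the same p-value-like limit, 0.01, so none was ranked. The larger peak list (98902 peaks in replicate 1, 130199 in replicate 2) was the main one, and the smaller (55102 and 78377) the stricter alternative. Reads of an F1 cross were placed on the reference, and its effect was not tested.

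Promoters were 500 bp on either side of GENCODE M21 starts, and the highest touching peak gave a gene's promoter signal. Distal sites touched no protein-coding promoter window and were merged at 1 bp. Overlaps used numpy 2.4.6 code checked on simulated intervals, and bedtools 2.31.1. Wilson 95% intervals cover counting error only. The rule for names took all 10 genes, each gene's strongest shared distal site, the 5 strongest of all members, the strongest per library alone and, in each list of other bHLH genes, the 2 highest. A gene taken by this rule is not reported here. Bhlhe22, Tcf4 and Tcf12 sites named beyond this, further sites of other genes, and the CTCF core were chosen after values or sequences were seen. The genes and lists were chosen with earlier results of these data known. Printed sequences come from GRCm38.p6 without coding-gene exons, and the E-box contexts are exempt from this. Protein sequences were not used here. Alternatives were the stricter list, other windows and flanks, reciprocal overlap of 0.5, starts of all gene types, shared-peak scaling and each library left out.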

Additional observations from a re-analysis of the deposited data

How the results depend on the processing

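No paired analysis was possible because there is 1 group and no comparison between groups. The number of promoters open in both libraries, 8, stayed 8 with the stricter peaks and with either library left out (8 to 8). It was 9 with a 2000 bp window, where Neurog2 was gained, and 7 from the gene record's 5′ end alone, where Tcf4 was lost. The count of 115 distal sites was 67 with the stricter peaks, 75 with 20 kb flanks, 177 with 100 kb flanks, 113 with promoters of all gene types, and 75 to 103 with 1 library left out: replicate 1 alone gave 75. Fewer bases searched, or a shorter list, lower such a count by construction. Their share in both libraries, 53.9%, was 43.5% at a reciprocal overlap of 0.5. At that overlap the footprint shares were 32.1% (replicate 1) and 27.8% (replicate 2), and within shared peaks the replicate 2 share was 50.9%. The share of distal sites with CAGATG or CATCTG, 27.8%, was 22.7% to 29.1% with 1 library left out. It was 5.22% when the match had to touch a footprint, for which no share of all sites is given. In 200 bp centred on the site, chosen after seeing the data, it was 23.5%, against 31.0% of all sites. The promoter signal of Bhlhe40 was 4.60 with the 2000 bp window, which takes in the site upstream of it, and the other 7 moved by less than 1 SD. With 2 libraries, leaving out either moves a mean by less than 1 SD by construction, so this says nothing about stability. The unknown depth limits what an absent peak means, as at Neurod4 and Neurog2.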
